A study of Drosophila melanogaster with 14 samples.

Results

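The transcripts of elav, fne, Rbp9 and Sxl, fly genes for RNA-binding proteins of the ELAV/Hu type and a close relative, were followed in the heads of control and fmn flies. The members were found by gene symbol in the annotation of the array platform, which gave 7 probe sets of 4 genes among the 18769 probe sets that are not controls: 1 each for elav and fne, 2 for Rbp9 and 3 for Sxl. The family as such was selected on the signals of these 14 arrays, namely how the genotypes differed and how the fmn array of ZT 12 stood. The difference between genotypes is therefore given for these 7 probe sets as a description, with no p value. Which of them met the thresholds applied to all probe sets is stated beside the share of all probe sets that did, and is no independent evidence.

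Control flies were the w1118 strain, and fmn flies carried the fumin mutation of the dopamine transporter gene DAT in a stock that arose in y w flies and was backcrossed to w1118 for 5 generations. Flies of both genotypes went through 4 cycles of light and dark and were frozen every 4 h from ZT 0 to ZT 24, where zeitgeber time (ZT) counts the hours from lights on. Each of the 14 arrays, 7 per genotype, measured 1 pool of RNA from about 400 heads of males and females, so no time point was repeated and the sexes were not separated. The methods give an age of 2 to 4 days after eclosion for male flies in general and no separate age for the mixed pools of the arrays. The signals are MAS5 intensities on a linear scale, and differences are log2 differences of fmn minus control, taken relative to the 75th percentile of the array.

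ELAV is a nuclear protein of neurons that binds RNA through RNA recognition motifs, guides alternative splicing and favours the use of distal polyadenylation sites, so that neuronal transcripts keep long 3′ untranslated regions. FNE (found in neurons) and RBP9 are its paralogs, also made in neurons, and RBP9 has a further role in the ovary. SXL (Sex-lethal) is the switch of female sex determination, where it controls the splicing of tra and of its own transcript and blocks the translation of msl-2. ELAV also limits the level of its own transcript through the 3′ untranslated region.

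The arrays were alike in scale, with 75th percentiles from 566 to 575 in control and from 563 to 584 in fmn. DAT had signals from 471 to 619 on the control arrays and from 1.43 to 14.5 on the fmn arrays, and 3.93 on the fmn array of ZT 12, so DAT was as low there as on the others. Over the tested probe sets the median correlation of the log2 signals of that array was 0.9836 with the other fmn arrays and 0.9851 with the control arrays. The median among the other fmn arrays was 0.9882. No such value is given for each of them alone, so these values do not show whether another array was as far from the rest. The genotype differences of the members are given with and without the fmn array of ZT 12. Transcripts of other organs were seen in 1 control array (ZT 0) and 2 fmn arrays (ZT 4 and ZT 8). The summed signal of 18 testis and accessory gland markers was 5571 on control ZT 0 and 5333 on fmn ZT 4, against genotype medians of 255 and 288. The sum of 13 ovary markers was 5644 on fmn ZT 8 (medians of 177 in both genotypes), and that of 11 gut enzymes was 5782 on control ZT 0, 3907 on fmn ZT 4 and 12814 on fmn ZT 8 (medians of 239 and 248).

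Of the 7 probe sets, 6 passed the filter on dim signals, which left out those under 100 on at least 7 of the 14 arrays. The exception was the Rbp9 probe set 1630971_s_at, with signals from 1.16 to 20 on the control arrays and from 1.19 to 5.82 on the fmn arrays. Over all 8641 probe sets tested with limma, 629 passed an adjusted p under 0.05 and a log2 difference of at least 0.32 in size (7.28%), 320 of them higher in fmn (3.70%) and 309 lower (3.58%). Of the 6 members, 1 passed as higher (elav) and 0 as lower. When the fmn array of ZT 12 was left out, 751 passed (8.69%), 388 higher (4.49%) and 363 lower (4.20%), among them elav as higher and the Sxl probe set 1625620_a_at as lower. With the time point as a block, 695 passed (8.04%), and elav was again the 1 member among them. No member had genotypes that did not overlap over all 14 arrays (0 of 6, against 5.01% of the tested probe sets), and without the fmn array of ZT 12 elav alone did (1 of 6, against 8.62%). Since these values took part in the choice of the family, the counts say nothing about it. The call of elav was lost when dim probe sets were kept, when both arrays of ZT 24 were left out, and when the 3 arrays with transcripts of other organs were left out.

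The signal of elav was more than doubled on 6 of the 7 fmn arrays and lower than in control on the other. In control heads the elav probe set 1636615_at had signals of 916 at ZT 0, 1009.5 at ZT 4, 1006 at ZT 8, 1108 at ZT 12, 1090.2 at ZT 16, 1031 at ZT 20 and 823 at ZT 24. In fmn heads it had 2327 at ZT 0, 2335 at ZT 4, 2265 at ZT 8, 612 at ZT 12, 2259 at ZT 16, 2228 at ZT 20 and 2174 at ZT 24. The array of ZT 12 was thus the lowest of all 14, below every control array, while the other 6 fmn arrays lay above every control array. The difference between genotypes ran from 1.03 to 1.41 on the log2 scale at the 6 other times and was -0.85 at ZT 12.

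The mean signal of elav was 998 ± 99.5 in control (SD, n = 7 arrays) and 2029 ± 627 in fmn (n = 7), a log2 difference of 0.91 or 1.87-fold. Without the fmn array of ZT 12 the fmn mean was 2265 ± 60.8 (n = 6), and the log2 difference was 1.17 or 2.26-fold. The 6 remaining fmn arrays varied little, with an SD on the log2 scale at percentile 0.648 of the tested probe sets, whereas the SD over all 7 fmn arrays was at percentile 99.5 and that over the control arrays at 61.8. Among the 8641 tested probe sets, ordered from the most positive difference, elav ranked 34 with all arrays and 20 without the fmn array of ZT 12. At the 3 arrays with transcripts of other organs elav was unremarkable: 916 on control ZT 0, 2335 on fmn ZT 4 and 2265 on fmn ZT 8. Without those 3 arrays and without the fmn array of ZT 12 the difference was 1.15. With 1 probe set for elav, a change of the whole transcript and one of the part the probes match cannot be told apart, and a base difference under the probes was not analysed here.

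**Figure D1:**
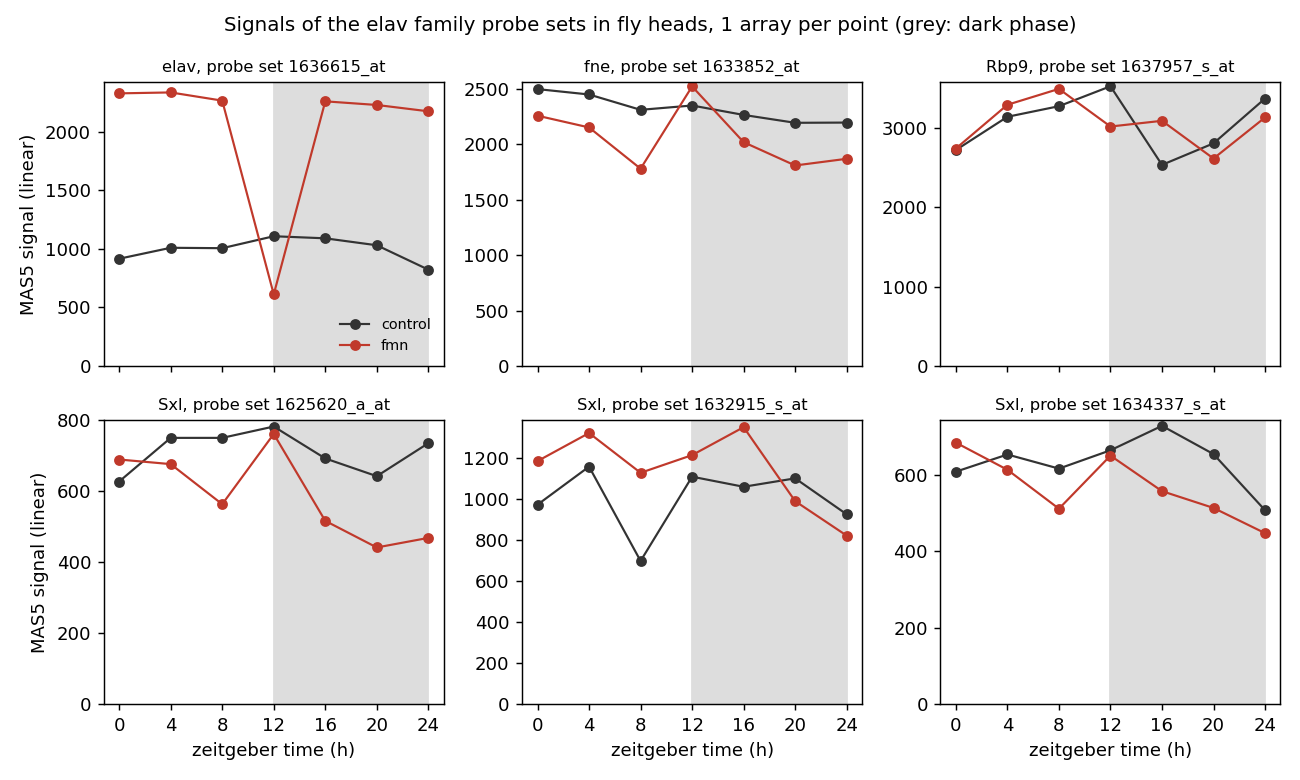
MAS5 signal (linear, from 0) of the 6 probe sets that passed the filter against zeitgeber time in hours, with control in black, fmn in red, 1 array per point and the dark phase in grey. For elav the fmn signals lie between 2174 and 2335 except at ZT 12 (612), and the control signals between 823 and 1108.

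The other members differed less between the genotypes. fne, which like elav was measured by a single probe set (1633852_at), had signals from 2195 to 2499 (median 2312) in control and from 1781 to 2523 (median 2020.2) in fmn. It was lower in fmn at 6 of the 7 times, by 0.16 to 0.42 on the log2 scale, and higher by 0.11 at ZT 12, where the fmn array had its highest signal, 2523. Below the control range lay 5 fmn arrays, while that of ZT 0 (2259) lay within it and that of ZT 12 lay above it. The means were 2324 ± 118 in control and 2059.6 ± 271 in fmn (n = 7 each), a log2 difference of -0.20, and -0.25 or 1.19-fold without the fmn array of ZT 12. On that array elav and fne both stood on the far side of the control mean from the other fmn arrays, by -0.70 for elav and by 0.11 for fne.

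The bright Rbp9 probe set 1637957_s_at did not separate the genotypes. Its signals ran from 2534 to 3524 (median 3139.6) in control and from 2614 to 3491 (median 3089) in fmn, so that every fmn array fell within the control range. The means were 3052 ± 369 and 3053 ± 302 (n = 7 each), a log2 difference of -0.01 with and without the fmn array of ZT 12. The difference at single times went from -0.22 at ZT 12 to 0.26 at ZT 16, in 4 cases lower in fmn and in 3 higher. On the fmn array of ZT 12 Rbp9 stood at 3017, 0.01 below the control mean on the log2 scale, so the low elav signal of that array was not shared by this paralog.

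The 3 probe sets of Sxl differed in direction. Probe set 1625620_a_at had signals from 628 to 783 (median 736) in control and from 442 to 762 (median 564) in fmn, and 4 of the 7 fmn arrays lay below the control range. Its log2 difference was -0.31 (712 ± 59.1 against 589 ± 122, n = 7 each), and -0.38 without the fmn array of ZT 12. Probe set 1634337_s_at went the same way by less, from 508 to 729 (median 654) in control and from 448 to 685 (median 558) in fmn, a log2 difference of -0.18, or -0.21 without that array. Probe set 1632915_s_at was instead higher in fmn at 5 of the 7 times, with signals from 697 to 1156 (median 1058) in control and from 820.3 to 1348 (median 1183) in fmn, and a log2 difference of 0.18, or 0.16 without that array. Without the control array of ZT 8, the lowest of the 14 for this probe set (697), the difference was 0.09.

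Within an array, the log2 difference of 1625620_a_at minus 1632915_s_at was -0.48 ± 0.293 in control and -0.97 ± 0.245 in fmn (SD, n = 7 arrays each), with array values from -0.77 to 0.11 in control and from -1.38 to -0.67 in fmn. The ranges of the genotypes overlapped between -0.77 and -0.67. Between 1625620_a_at and 1634337_s_at the within-array difference moved by only -0.13 from control to fmn, less than its SD of 0.21 in control. The probe sets of Sxl can match different transcripts of the gene, which is spliced differently in the sexes. As the heads of both sexes were pooled, a change of isoform and a change in the share of females cannot be told apart. Among the markers, the yolk protein genes Yp1, Yp2 and Yp3, which are expressed in the fat body of females, differed by -0.28, -0.28 and -0.29 (adjusted p = 0.0258, 0.014 and 0.0184, limma), under the minimum log2 difference of 0.32, and by -0.29, -0.28 and -0.29 without the fmn array of ZT 12. The other tested genes of the fat body list went apart. Lsp2 was higher in fmn by 1.71 (adjusted p = 0.00396, limma), and apolpp differed by -0.13 (adjusted p = 0.138, limma). The median of the 6 tested photoreceptor genes was -0.24. The part of these genes in the values of Sxl was not tested. roX1 and roX2, the male RNAs on the list of markers, were matched to no probe set.

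In fmn heads the 3 Sxl probe sets were lowest at ZT 20 or ZT 24 and highest at ZT 0, ZT 12 or ZT 16. For 1625620_a_at the difference between genotypes was 0.12 at ZT 0, -0.17 at ZT 4, -0.46 at ZT 8, -0.04 at ZT 12, -0.44 at ZT 16, -0.54 at ZT 20 and -0.64 at ZT 24. Both it and 1634337_s_at, as well as fne, had their 2 highest fmn signals on the arrays of ZT 0 and ZT 12. At ZT 24, which falls at the same phase as ZT 0, the 3 Sxl probe sets of fmn were lower than at ZT 0 by 0.52, 0.50 and 0.58 on the log2 scale. The SD of this difference over all tested probe sets was 0.202 in fmn. In control the same probe sets differed by 0.24, -0.06 and -0.25, with an SD over all probe sets of 0.258. For elav the difference of ZT 24 minus ZT 0 was -0.14 in control and -0.07 in fmn, for fne -0.17 and -0.24, and for the bright Rbp9 probe set 0.32 and 0.22. With arrays centred on their medians all 6 control differences moved up: those of elav, fne and the last 2 Sxl probe sets turned to 0.15, 0.12, 0.23 and 0.04, and those of Rbp9 and the Sxl probe set 1625620_a_at became 0.61 and 0.53. These are differences of single arrays and were not tested.

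**Figure D2:**
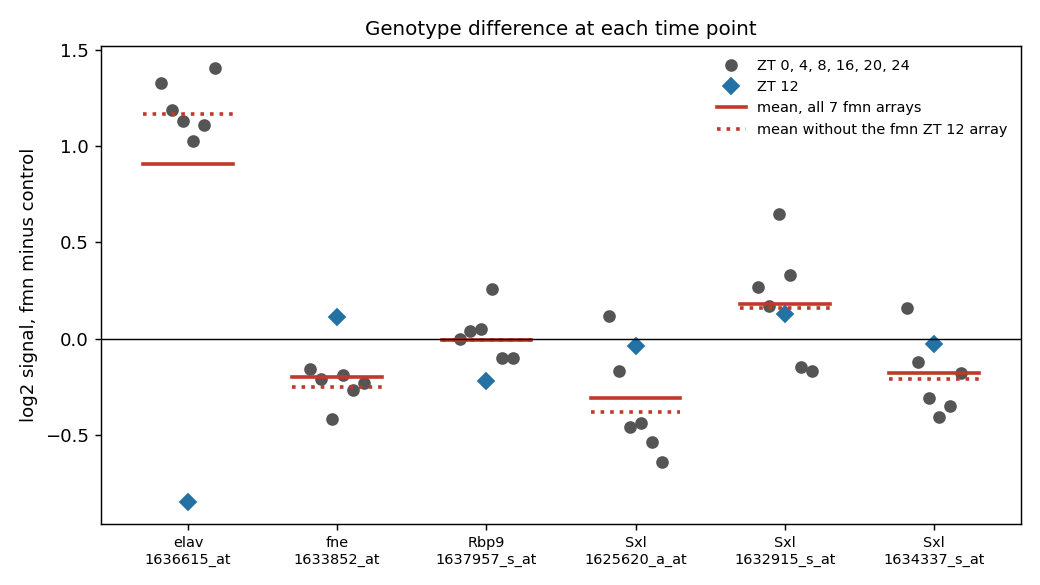
Log2 difference of fmn minus control at each time point for the 6 probe sets, with grey circles for 6 of the times, a blue diamond for ZT 12, and red lines for the mean over all arrays (solid) and without the fmn array of ZT 12 (dotted). The elav points lie between 1.03 and 1.41 apart from -0.85 at ZT 12, and those of Rbp9 lie between -0.22 and 0.26.

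A daily rhythm was looked for in each genotype with a cosine and sine of 24 h. For elav in fmn the result includes the array of ZT 12, whose signal took part in the choice, and it is given as a description. No member passed in limma's F test at an adjusted p under 0.05: 0 of 6 in control, where 444 of the 8641 probe sets passed (5.14%), and 0 of 6 in fmn, where 370 passed (4.28%). At an unadjusted p under 0.05 the counts were 0 in control and 1 in fmn, and the latter was elav. In control the log2 amplitudes ran from 0.06 (fne, standard error 0.09) to 0.17 (Rbp9, standard error 0.07), with adjusted p values from 0.421 for Rbp9 to 0.901 for elav in limma. Both genotypes shared 1 estimate of the spread in this fit, so the fmn array of ZT 12 also entered the control test of elav. Without that array the adjusted p of elav in control was 0.145 in limma, the lowest of the 6 members. The fitted peak of Rbp9 stood at ZT 6.95 in control (amplitude 0.17) and ZT 7.43 in fmn (amplitude 0.15, adjusted p = 0.456, limma). For elav in fmn the amplitude was 0.57 (standard error 0.20, adjusted p = 0.27, limma), and it was 0.03 without the array of ZT 12 (adjusted p = 0.943, limma), when 305 of the tested probe sets passed (3.53%), so the value rested on that single array. With arrays centred on their medians the elav rhythm in fmn did pass (adjusted p = 0.00651, limma), as did 345 of the 8641 probe sets. For a rhythm that differed between fmn and control, the adjusted p in limma was 0.998 for all 6 members, 0 of which had an unadjusted p under 0.05. Of the 8641 probe sets 0 passed (0.00%), and 357 had an unadjusted p under 0.05.

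The genes of which ELAV is known to alter the splicing or the 3′ untranslated region were looked at next. The lists were drawn up from background knowledge, but with earlier results of these data known. Their counts and p values are therefore no independent evidence. Each gene was taken at its brightest probe set. Of 5 tested genes whose long 3′ untranslated regions depend on ELAV, 3 were higher in fmn and 0 were lower. Over all probe sets tested, 3.70% were higher and 3.58% lower. The median log2 difference was 0.42, against -0.02 over all probe sets tested. The counts were the same without the fmn array of ZT 12, where Imp, shep and nej differed by 0.69, 0.69 and 0.51. The higher genes were Imp, which encodes an mRNA-binding protein (0.57, standard error 0.13, adjusted p = 0.00815, limma), shep, which encodes another (0.57, standard error 0.14, adjusted p = 0.0126, limma), and nej, which encodes the acetyltransferase CBP (0.42, standard error 0.12, adjusted p = 0.0264, limma). The translational repressor genes mei-P26 (0.19, adjusted p = 0.0983, limma) and pum (0.08, adjusted p = 0.36, limma) did not pass. The probe set of brat, a partner of pum, was too dim to be tested.

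On the probe sets given for Imp, shep, nej and mei-P26, the fmn array of ZT 12 did not have the higher signals of the other fmn arrays. Imp had signals from 256 to 332 in control and from 426 to 589 on the 6 other fmn arrays, but 268 on that of ZT 12 (probe set 1630309_s_at). shep had 192 to 304 in control, 326 to 453 on the 6 fmn arrays and 209 on that of ZT 12 (1637552_s_at), and nej had 343 to 510.5, 513 to 761 and 419 (1622925_at). mei-P26 had 1047 to 1246, 1330.3 to 1494 and 974. On these 4 probe sets the 6 fmn arrays lay above all control arrays and the array of ZT 12 did not, and in pum they overlapped. It was otherwise for a further probe set of shep, 1632939_s_at, which was also higher in fmn (0.40, adjusted p = 0.0182, limma). There the signals were 138 to 259.7 in control and 215 to 293 on the 6 fmn arrays, and the array of ZT 12 (229) lay within both ranges.

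Probe sets of 1 gene could differ in direction here too. Of the 2 tested probe sets of Imp, 1623455_s_at differed by -0.19 (adjusted p = 0.142, limma) while 1630309_s_at was higher. Their control medians were alike, 308 and 310.1, so 1630309_s_at was the brighter one through its fmn signals. The count of Imp as higher rests on that choice of probe set. Of the splicing targets, Nrg, which encodes the cell adhesion protein neuroglian, had the probe set 1626001_at lower in fmn by 0.45 on the log2 scale (adjusted p = 0.0105, limma), with signals from 459 to 615 in control, from 302 to 402 on 6 fmn arrays and 544 on that of ZT 12. The other 2 Nrg probe sets had higher signals on the same 6 arrays, 1636146_at from 661 to 989 in control to 1171 to 1533, with 455 at ZT 12, and 1637463_a_at from 877 to 1308 to 1479.7 to 1765, with 677. Because of the array of ZT 12 neither passed with all arrays (0.57, adjusted p = 0.0924, and 0.48, adjusted p = 0.0684, limma), and both passed without it. The splicing targets ewg (-0.02, adjusted p = 0.817, limma) and Dscam1 (0.07, adjusted p = 0.485, limma) did not pass, so the list had 0 higher and 0 lower of 3 tested by the brightest probe set of each gene. Where along a transcript each probe set lies was not analysed here.

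After the elav signals had been seen, the tested probe sets were searched for its arrangement, in which 6 fmn arrays lie beyond all 7 control arrays and the fmn array of ZT 12 does not. There were 312 of 8641 (3.61%), 145 of them higher (1.68%) and 167 lower (1.93%) on the 6 fmn arrays. By size, elav ranked 5 among the 145.

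**Figure D3:**
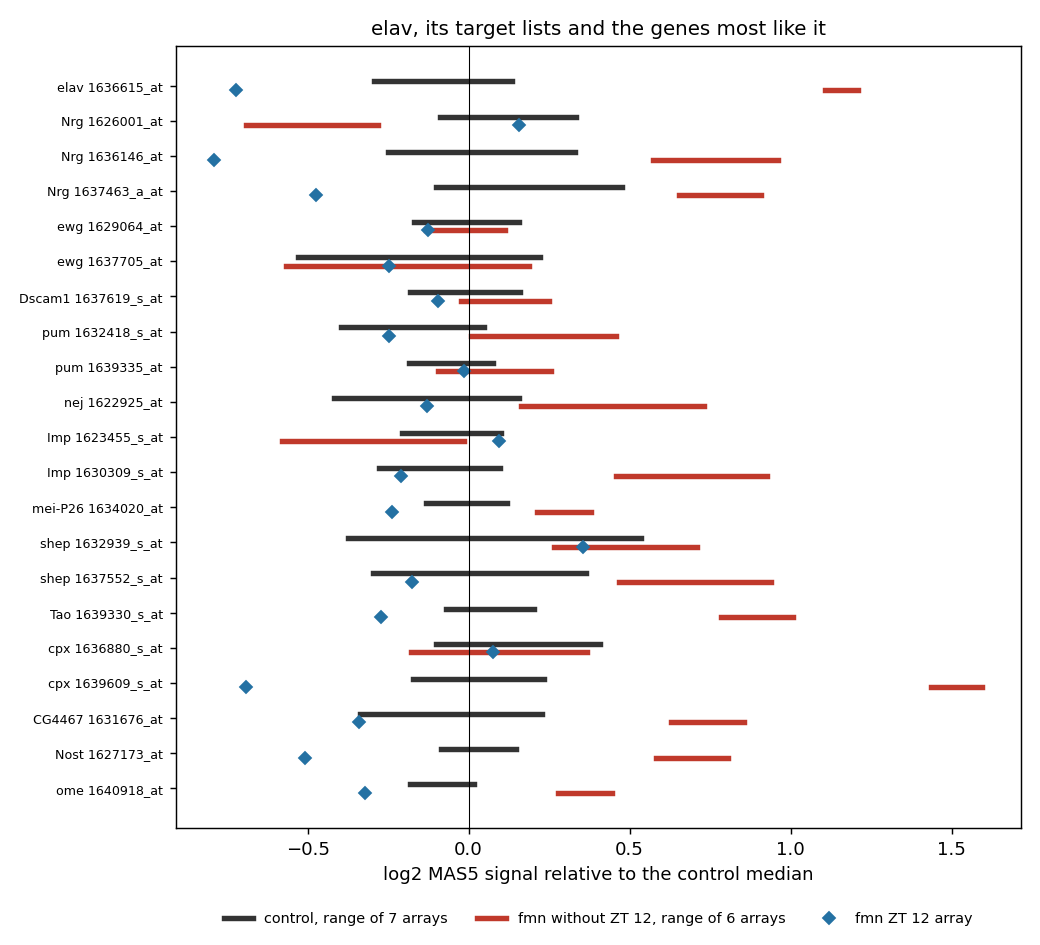
Log2 MAS5 signal relative to the control median for elav, all tested probe sets of the ELAV target lists, and the 5 genes most like elav. Black bars span the 7 control arrays, red bars the 6 fmn arrays other than ZT 12, and the blue diamond is the fmn array of ZT 12; for elav the red bar (2174 to 2335) lies above the black bar (823 to 1108) and the diamond (612) below it.

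The genes that act with Sxl in sex determination and dosage compensation were looked at in the same way. Of 12 tested genes, among them tra, tra2, dsx, fru, msl-2 and mle, 0 were higher and 0 lower, with a median of 0.00. The shares over all tested probe sets were 3.70% and 3.58%. The counts were the same without the fmn array of ZT 12. For tra, whose splicing SXL controls, the mean signals were 924 ± 28.1 (control) and 976 ± 40.5 (fmn, n = 7 each), a log2 difference of 0.07 (adjusted p = 0.276, limma). msl-2, the target of translational block, had 603 ± 95.9 and 541 ± 73.5, a difference of -0.17 (adjusted p = 0.292, limma). dsx, the last gene of the pathway, differed by 0.31 with an adjusted p of 0.0172 in limma and stayed under the minimum difference of 0.32.

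Of 14 other tested genes for RNA-binding proteins of neurons, 1 was higher (3.70% over all probe sets) and 0 were lower (3.58%), with a median of 0.00. The higher one was Rbp6, which encodes a protein of the Musashi type, from 343 ± 19.3 to 523 ± 138 (n = 7 each), a log2 difference of 0.55 (standard error 0.13, adjusted p = 0.00884, limma). On the fmn array of ZT 12 its signal was 319.8, and without that array the difference was 0.66 and the counts of the list were the same. Fmr1, the fly gene of the fragile X protein, did not pass (0.00, adjusted p = 0.994, limma). stau, which encodes a protein of RNA transport, differed by -0.25 with an adjusted p of 0.00788 in limma, under the minimum difference.

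The summed signal of 13 neuronal genes, 12 of them with a mean over 100, ran from 42854 to 46966 (median 45368) on the control arrays and from 39234 to 42698 (median 40633) on the fmn arrays, and it was highest in fmn at ZT 12 (42698). This sum of linear signals rests mainly on its brightest genes, nrv3, Snap25 and Gad1, with control means of 11266, 8269 and 7905. These differed by -0.25, -0.14 and -0.12 on the log2 scale. Of the 12 tested, 0 were higher (3.70% over all probe sets) and 1 was lower (3.58%), brp (-0.37, adjusted p = 0.0458, limma), with a median of -0.10. Without the fmn array of ZT 12, 1 was higher and 1 lower. The higher one was para, a sodium channel gene (0.33 with all arrays, adjusted p = 0.0567, and 0.43 without that array, adjusted p = 0.00188, limma). Its signals were 214 to 290.4 in control, 314 to 404 on the 6 other fmn arrays and 214 on that of ZT 12, the same arrangement as for elav. Appl and nrv3 had this arrangement in the lower direction. Appl had 3271 to 3809 in control, 2679 to 3239.5 on the 6 fmn arrays and 3611 on that of ZT 12. nrv3 had 10261 to 11899, 8944 to 10235 and 10492. Among the glial markers, Gs2 had it in the lower direction and Tret1-1 in the higher. The summed signal of 8 glial genes ran from 23931 to 26416 in control and from 22465 to 25086 in fmn, with 1 lower (Gs2, a glutamine synthetase gene, -0.34, adjusted p = 0.00233, limma) and 0 higher of 7 tested, the same counts as without the fmn array of ZT 12, and that of 6 photoreceptor genes from 94335 to 112621 and from 78568 to 93304. In whole heads fewer cells of a type and less RNA per cell cannot be told apart, and the part of these sums in the values of the members was not tested.

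The probe sets most like elav over the 14 arrays were those of Tao, a protein kinase gene (r = 0.984), cpx, which encodes complexin of the synapse (0.976), CG4467 (0.974), Nost (0.973) and ome (0.972). Without the fmn array of ZT 12 these correlations of log2 signals were 0.984, 0.971, 0.977, 0.968 and 0.963 over 13 arrays. The arrays fall into 2 genotypes, and the genotype and that array make up much of such values, so they are given only as a description. cpx had signals from 1016 to 1347 in control, from 3100.1 to 3462 on 6 fmn arrays and 709 on that of ZT 12 (probe set 1639609_s_at). A brighter probe set of cpx, 1636880_s_at, had 5963 to 8489.6, 5643 to 8259 and 6746, so that the genotypes overlapped. Tao had 858 to 1037, 1551 to 1812 and 746. For the other members the likeness was lower: TTLL4A (0.952) and Ubr3 (0.934) came nearest to fne, CG9917 (0.917) and nebu (0.906) to the bright Rbp9 probe set, and dtn (0.915), Fim (0.818) and Unr (0.869) to the Sxl probe sets 1625620_a_at, 1632915_s_at and 1634337_s_at. Unr encodes the protein that binds msl-2 RNA with SXL.

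The genes beside elav on the X chromosome did not share its pattern, apart from Appl in the other direction. The 10 nearest measured genes on either side, in the gene order of the Release 6 assembly, reached from 47 genes before elav to 17 after it. Without the fmn array of ZT 12 their log2 differences ran from -0.29 to 0.66 (median 0.06). Of the 20, 2 passed with and without that array, arg and tyn. Over all tested probe sets 7.28% passed with all arrays and 8.69% without that array. arg, which encodes arginase and is the gene next to elav, had a mean of 189 in control, 304 on the 6 other fmn arrays and 319.6 on that of ZT 12 (log2 difference 0.68, adjusted p = 0.0049, limma). tyn had 155, 224 and 189.9 (0.49, adjusted p = 6.19e-05, limma). Appl, which encodes the amyloid precursor protein of flies, had 3537, 2928 and 3611, a difference of -0.24 that stayed under the minimum difference. Of the 20 neighbours each of fne, Rbp9 and Sxl, 1 passed in each case, and without the fmn array of ZT 12 the count was 4 for fne and 1 each for Rbp9 and Sxl.

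**Figure D4:**
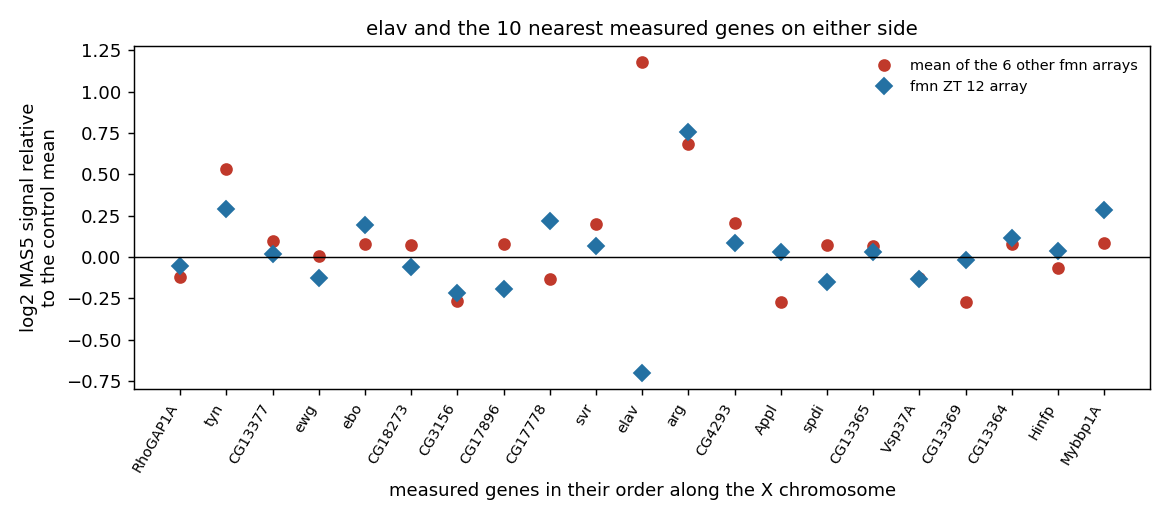
Log2 MAS5 signal relative to the control mean for elav and the 10 nearest measured genes on either side in their order along the X chromosome, with the mean of the 6 other fmn arrays in red and the fmn array of ZT 12 in blue. For elav the points are 2265 and 612 against a control mean of 998, while for the adjacent arg they are 304 and 319.6 against 189.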

How the data were processed

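Total RNA of pooled heads was labeled as biotin cRNA and hybridized by the authors to 1 Affymetrix Drosophila Genome 2.0 array per pool. They deposited the MAS5 intensity of every probe set on a linear scale, for which the version and scaling target are not given in the sources used here. Of the 18769 probe sets, 13646 name 1 gene, 402 several and 4721 none in the platform annotation. Symbols were updated by gene ID through the RefSeq table of the Release 6 assembly, which matched 13543 probe sets and gave the order of genes.

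Signals were converted to log2 and centred on the 75th percentile of the array, and probe sets under 100 on at least 7 of 14 arrays were left out. Genotypes were compared with limma 3.58.1 (lmFit, eBayes) in R 4.3.3 over all 8641 remaining probe sets, without a block for time, with Benjamini-Hochberg adjustment. Rhythms were tested by F tests of limma with the cosine and sine of 24 h. The fits were tested on simulated data. A gene of a list is given by its brightest tested probe set. The p values measure the spread between these pools, and SDs include changes over the day. Precision is limited by how many arrays there are.

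Named are all member probe sets and up to 4 called genes of each list with up to 2 others. Also named are the nearest of the 5 probe sets of highest correlation for each member. The genes brat, dsx, stau, mub, para, nrv3, Appl, Tret1-1, Snap25, Gad1 and those of the fat body go beyond this and were chosen after their values were seen. The members and the lists were chosen with earlier results of these data known. The neighbours, the further probe sets of listed genes, and the fit that leaves out 3 arrays holding other organs' transcripts were added after the data were seen. Same-time arrays of both genotypes deviated together from their genotype means: the correlations of these deviations, over probe sets, ran from 0.132 to 0.503 at the 7 times, so the time points were taken to pair the arrays. Alternatives changed the scaling, filter, pseudocount (32), test, block and arrays used.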

Additional observations from a re-analysis of the deposited data

Results flagged for a closer look

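Each of the 14 sets of 7 signals (7 probe sets in 2 genotypes) was checked for an array far from the rest, by the gap to its nearest neighbour as a share of the whole range, against Dixon's critical value at the 95% level. Chance alone gives about 1 such set in 20. It was exceeded in 3 sets. The fmn array of ZT 12 stood apart for elav, with a signal of 612 against 2174 to 2335 on the other fmn arrays and a gap of 0.906 of the range. This array's signal was among the values the family was selected on, so for elav the gap restates that choice, and the rate that chance gives does not apply to it. For the dim Rbp9 probe set 1630971_s_at the control array of ZT 0 stood apart at a signal of 20 (0.849 of the range), and the fmn array of ZT 12 at 5.82 (0.594). Both of the latter signals lie far below the floor of 100 under which probe sets were left out. Control ZT 0 was also 1 of the arrays with transcripts of testis and gut, and the part of these in the signal of Rbp9 was not tested.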

How the results depend on the processing

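Of the 6 tested members, 1 passed between the genotypes (elav), as did 629 of 8641 probe sets (7.28%). The count was 0 without a filter on dim probe sets, where 568 of 18769 passed. It was 0 without both arrays of ZT 24, where 578 of 8641 passed. It was also 0 without the control ZT 0 and fmn ZT 4 and ZT 8 arrays, where 506 of 8641 passed, a setting chosen after seeing the data. With each array left out in turn the count ran from 1 to 2. The Sxl probe set 1625620_a_at was the added one where the count was 2. This was so without the fmn array of ZT 0 (-0.35) and without that of ZT 12 (-0.38), where 646 and 751 of 8641 passed. The log2 difference of elav was 0.91, and from 0.85 to 1.17 with each array left out; without the filter it stayed at 0.91, without ZT 24 it was 0.82 and without the 3 arrays of other organs 0.78. With the time point as a replicate block 1 member passed, as in the fit without it, and 695 of 8641 probe sets did (8.04%). The pairing changed no other call among the members. The methods' t-test called 579 probe sets after Benjamini-Hochberg adjustment and 687 at an unadjusted p, against 629 for limma. The difference of the bright Rbp9 probe set, -0.01, turned to 0.00 without further scaling and to 0.01 without both arrays of ZT 24, and ran from -0.05 to 0.03 with each array left out. The count of rhythmic members in fmn was 0, where 370 of 8641 probe sets passed (4.28%). It was 1 with arrays centred on the median (345 of 8641) and 1 without the 3 arrays of other organs (186 of 8641). Both times this was elav, with the fmn array of ZT 12 in the fit. The count stayed 0 with each array left out, as did the counts of rhythms in control and of differences in rhythm. The cause of these changes was not tested.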

Other observations

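In 312 probe sets 6 fmn arrays lay beyond all control arrays and the fmn array of ZT 12 did not, as for elav. Those with a placed gene were spread over the chromosome arms. They were 62 of 1274 tested probe sets on X (4.87%), 39 of 1350 on 2L (2.89%) and 40 of 1562 on 2R (2.56%). There were 59 of 1459 on 3L (4.04%), 59 of 1930 on 3R (3.06%) and 1 of 68 on chromosome 4 (1.47%). The rest of the 312 were matched to no single gene with a place on these chromosomes. Of the lists above, 4 of 5 tested genes with long 3′ untranslated regions that depend on ELAV had this arrangement (nej, Imp, mei-P26 and shep), as did 1 of 3 splicing targets (Nrg), 2 of 14 other neuronal RNA-binding genes (Syp and Rbp6) and 0 of 12 genes that act with Sxl. The share over all tested probe sets was 3.61%. Each gene was counted by its brightest probe set, and the other tested probe sets of Imp (1623455_s_at) and shep (1632939_s_at) did not have the arrangement. The search was made on the arrays that showed the arrangement, so these shares are a description.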
